A study of Mus musculus with 2 samples.

Results

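The genes described here are 9 mouse genes of MHC class II antigen presentation: Cd74, H2-Aa, H2-Ab1, H2-Eb1, H2-DMa, H2-DMb1, H2-Oa, H2-Ob and Ciita. They were chosen by name, as the rows of the deposited gene table whose symbol is one of the 9, and all 9 had a row among the 23309 of the table. Expression was measured by RNA sequencing in lineage-depleted bone marrow progenitors that carry loxP-flanked Cebpa alleles and CreER (Cebpaf/f;CreER), a Cre recombinase switched on by 4-hydroxytamoxifen (4OHT). Cebpa encodes C/EBPα, a transcription factor of the granulocyte and monocyte lineages. All cells carried the retroviruses MIGR1-HA-Hoxa9 and, for its partner, MIGR1-Flag-Meis1, which encode leukaemia-associated homeodomain proteins, and were grown with interleukin-3. The vehicle group received ethanol and the 4OHT group 5 nM 4OHT, both for 72 h. The strain, sex and age of the mice, the promoter that drives CreER and the part of Cebpa between the loxP sites are not stated in the sources used here.

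Each condition has 1 deposited sample that joins 2 replicates, which leaves 1 value per gene and condition and no measure of replicate spread. Values are in FPKM, fragments scaled by transcript length and by library size, a scale on which levels of different genes can be compared. A gene is said to have risen or fallen when the authors' deposited table gave it a q-value under 0.05, and no test was run here. Cebpa itself fell from 109 to 42.8 FPKM (q of 0.00165 by the authors' deposited table). Effects of Cebpa loss, of 4OHT and of Cre activity cannot be told apart in this design. In a bulk sample, fewer cells of a type and less RNA per cell cannot be told apart either. Read counts are not part of the table, and sequencing depth is unknown. Where a pair of values is given for a gene, the vehicle value stands first.

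MHC class II molecules are pairs of an alpha and a beta chain that show peptides from the endosomes to CD4+ T cells. The classical mouse pairs are I-A, made of the H2-Aa and H2-Ab1 chains, and I-E, whose beta chain is H2-Eb1. The invariant chain, encoded by Cd74, holds new pairs in shape and guides them to endosomes, where H2-DM, a dimer of H2-DMa and H2-DMb1, exchanges its last fragment for a peptide. H2-O, a dimer of H2-Oa and H2-Ob, restrains H2-DM. Ciita encodes the coactivator on which class II transcription depends. It is held at the promoters by RFX, CREB and NF-Y, which bind neighbouring elements called the X and Y boxes. Dendritic cells, B cells and macrophages are the best known sources of surface class II in the marrow.

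Letters of the X and Y boxes lie just upstream of the start in most of the members whose promoter was at hand. RefSeq promoter windows on GRCm38.p6, 250 bases before to 50 after an annotated start, matched 6 of the 9 members by symbol. H2-Ab1, Cd74 and Ciita had no entry. The stretches below are those of the 5 members that hold both elements. Of these, H2-Aa and H2-Eb1 rose after 4OHT, and H2-Oa, H2-Ob and H2-DMb1 did not reach a q under 0.05. Whether the elements bear on these changes was not tested. Capitals mark the X core, searched as CNNGNAAC, and the Y box, searched as ATTGG, which holds the CCAAT of the opposite strand. Each stretch runs 5′ to 3′ on the strand of its gene.
H2-Aa: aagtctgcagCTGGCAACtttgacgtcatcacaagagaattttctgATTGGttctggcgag
H2-Eb1: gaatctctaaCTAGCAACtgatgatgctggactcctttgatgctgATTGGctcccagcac
H2-Oa: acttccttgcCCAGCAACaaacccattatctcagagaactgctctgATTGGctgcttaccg
H2-Ob: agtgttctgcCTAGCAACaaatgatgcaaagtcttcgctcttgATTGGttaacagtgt
H2-DMb1: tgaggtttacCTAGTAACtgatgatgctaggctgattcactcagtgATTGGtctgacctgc
The H2-Aa stretch is chr17:34287857-34287917 on the minus strand. The others lie on the plus strand, H2-Eb1 at chr17:34305763-34305822, H2-Oa at chr17:34092290-34092350, H2-Ob at chr17:34238805-34238862 and H2-DMb1 at chr17:34153084-34153144. The X core began 79 to 97 bases before the start and the Y box 43 to 61 bases before it. Between the 2 elements lay 25 to 28 bases in all 5 genes.

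The letters alone are common, and the pair is not. The X core occurred on either strand in 39.1% of all 32851 promoter windows and the Y box in 37.4%. An X core followed on the same strand, after 20 to 30 bases, by a Y box occurred in 136 windows, 0.414%, and in 5 of the 6 matched members. The distance range was set with these sequences in view, so the share is a description. H2-Aa also held the CREB element, searched as TGACGTCA, which reads the same on both strands and lies 74 bases before the start, past the end of its X core. That element occurred in 1.79% of windows. H2-DMa had 2 annotated starts, and neither window held the pair. A match of letters does not show binding.

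**Figure D1:**
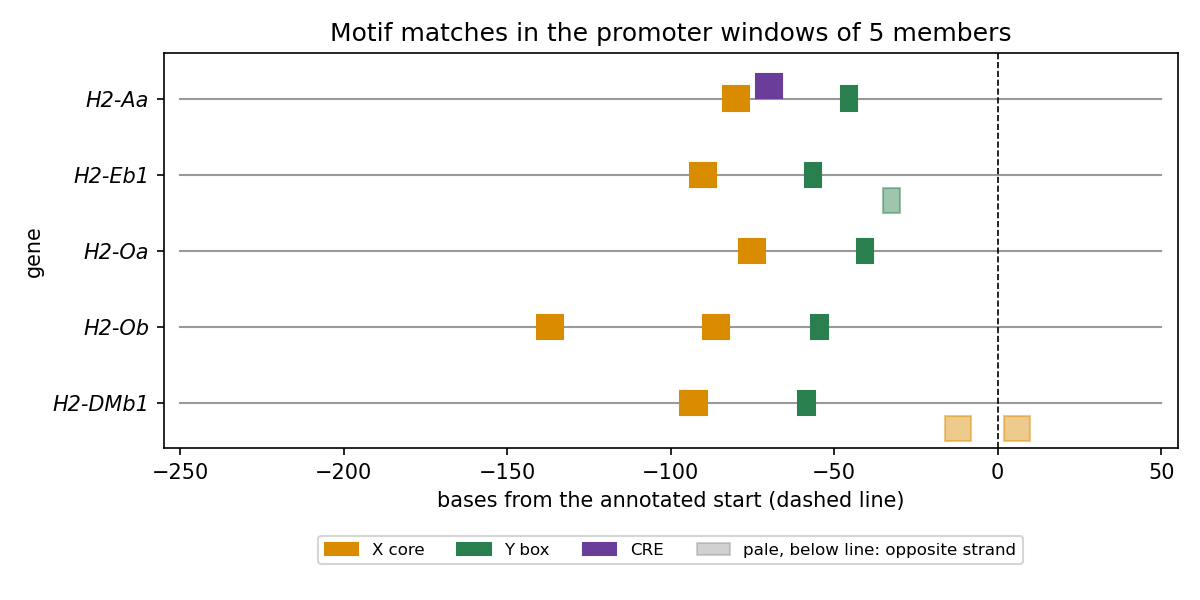
Positions of X core, Y box and CREB element (CRE) matches in the promoter windows of 5 members, in bases from the annotated start, with matches on the opposite strand pale and below the line. In each gene an X core 79 to 97 bases upstream is followed by a Y box 43 to 61 bases upstream.

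After 4OHT the invariant chain, the alpha chain of I-A and the beta chain of I-E rose from very low levels, while H2-Ab1, by far the most abundant classical chain, fell. Of the 9 members 8 were tested by the authors. Among these 8, the test was passed by 3 that rose and 1 that fell, and 4 did not pass. Of the 11953 rows tested in all, 5.91% passed, 2.80% as higher and 3.11% as lower. The members' median log2 ratio, log2((4OHT + 1)/(vehicle + 1)) with a pseudocount of 1 FPKM, was 0.13, beside a median of 0.0009 over all tested rows. The 0.13 was taken over all 9 members and equals the value of Ciita, which was not tested. A pseudocount of 1 FPKM understates the change of genes near or below 1 FPKM.

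Stricter and looser rules moved these counts. At q under 0.01, which 3.84% of tested rows passed, Cd74 alone was higher, against 1.72% of all rows as higher, and no member was lower, against 2.12%. An unadjusted p under 0.05, passed by 12.3% of rows, gave 4 members as higher (6.20% of all rows), with H2-Oa added, and 1 as lower (6.14%). A change of at least 2-fold beside q under 0.05, met by 2.74% of rows, kept 3 members as higher (1.14%) and none as lower (1.61%), since H2-Ab1 changed less. Over rows of at least 1 FPKM with p adjusted again, where 5.75% passed, 2 members were higher (2.66%) and 1 was lower (3.09%), because H2-Eb1 lay under that level.

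**Figure D2:**
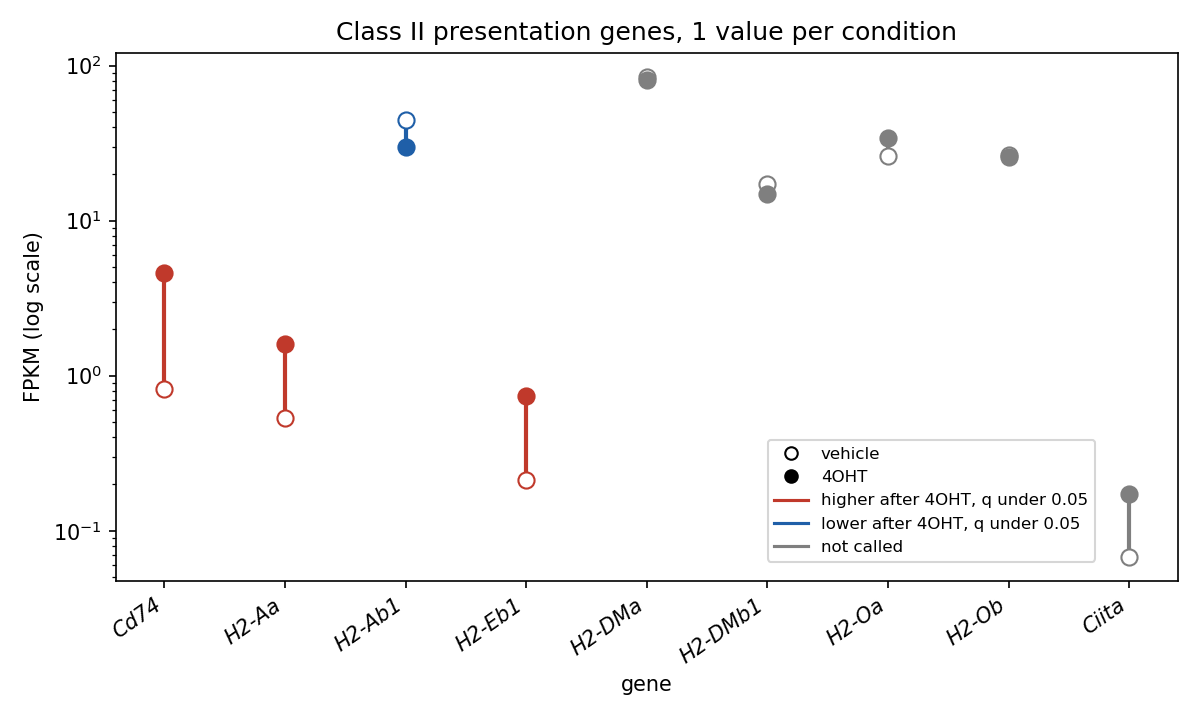
FPKM of each member on a log axis in vehicle cells (open circles) and after 4OHT (filled circles), 1 value per condition, coloured by the authors' deposited q. Cd74, H2-Aa and H2-Eb1 rise from below 1 FPKM, H2-Ab1 drops from 44.6 to 29.8 FPKM, and the DM and DO chains stay between 14.8 and 84.4 FPKM.

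Cd74 had the largest relative change of the members. Its level was 0.826 FPKM with vehicle and 4.60 FPKM with 4OHT, a 5.57-fold rise (q of 0.00165 by the authors' deposited table). In vehicle cells 8.53% of all tested rows lay below Cd74, and after 4OHT 27.4% did. The gene therefore went from near the bottom of the tested range to a low level, not to an abundant one. Of the 1185 tested rows whose mean level lay within 1.5-fold of that of Cd74, 105 were called, 8.86%. The smallest change called among them was 0.61 on the log2 scale of the plain FPKM ratio, against 2.48 for Cd74. On mm9, the build named in the submitters' processing notes, the Cd74 row spans chr18:60963503-60972306.

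H2-Aa, the alpha chain of I-A, rose as well. It had 0.535 FPKM with vehicle and 1.60 FPKM with 4OHT, a 2.996-fold rise (q of 0.0264 by the authors' deposited table). H2-Eb1, the beta chain of I-E, had 0.214 and 0.735 FPKM. This 3.44-fold rise carried the same q of 0.0264 in the authors' deposited table, although the gene stayed below 1 FPKM in both conditions. Only 0.719% of tested rows lay below H2-Eb1 in vehicle cells. The alpha chain locus of I-E, H2-Ea-ps, was listed at 0 FPKM in both conditions, so a rise of H2-Eb1 RNA does not show a gain of I-E. Among the 676 tested rows within 1.5-fold of its mean level 7.84% were called, and for the 853 around H2-Aa the share was 10.2%. The smallest change called near H2-Eb1 was 0.77 on the log2 scale of the plain ratio, where H2-Eb1 itself had 1.78. For genes this low few fragments can lie behind a value, and with 1 value per condition their rise has no replicate check here.

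H2-Ab1, the beta chain that pairs with H2-Aa, went the other way. It fell from 44.6 to 29.8 FPKM, which is 1.496-fold lower (q of 0.0148 by the authors' deposited table). In vehicle cells 80.2% of tested rows lay below it, and 71.8% after 4OHT. Of the 2034 tested rows within 1.5-fold of its mean level 3.64% were called, and the smallest change called among them was 0.49 on the log2 scale of the plain ratio, beside a log2 ratio of -0.58 for H2-Ab1. Its change thus lay near the smallest that was called at that level. H2-Ab1 passed by its q but lacks the authors' further mark of differential expression, which is described at the end.

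The partners of I-A were far from equal in RNA level. In FPKM, H2-Ab1 stood 83.3-fold above H2-Aa in vehicle cells and 18.6-fold above it after 4OHT. It stood 53.9-fold above Cd74 in vehicle cells and 6.47-fold above it after 4OHT. The rises of the low genes and the fall of the abundant one together brought the levels closer, without making them alike. Cd74, H2-Aa and H2-Eb1 summed to 1.58 FPKM with vehicle and 6.94 FPKM with 4OHT, 4.40-fold more. With H2-Ab1 added the sum went from 46.1 to 36.7 FPKM, so that total follows H2-Ab1. Whether each row counts only its own gene was not tested.

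The chains of the peptide editor H2-DM were well expressed and did not pass the test. H2-DMa was the most abundant member, at 84.4 FPKM with vehicle and 80.8 FPKM with 4OHT (q of 1.00 by the authors' deposited table). H2-DMb1 had 17.1 and 14.8 FPKM, with q = 0.999 there. H2-DMa stood 4.93-fold above its partner in vehicle cells and 5.45-fold above it after 4OHT. H2-DMb2, a near copy of H2-DMb1 that is not among the members, had 1.20 and 1.50 FPKM. How reads that match both copies were assigned is not stated in the sources used here.

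The chains of H2-O, the restrainer of H2-DM, were expressed at like levels in vehicle cells. H2-Oa had 26.2 FPKM with vehicle and 34.2 FPKM with 4OHT, a ratio of 1.31. Its unadjusted p was 0.0394 and its q 0.347 in the authors' deposited table, so it did not pass the test. H2-Ob had 26.4 and 25.9 FPKM, with q = 1.00 there. The H2-Oa row shares its locus with that of BC051537, which had 1.12 and 1.38 FPKM. The DO chains summed to 0.518 of the DM chains in vehicle cells and 0.628 after 4OHT, as ratios of summed FPKM. The 4 DM and DO chains together had 154.0 FPKM with vehicle and 155.7 FPKM with 4OHT. Around each of the 4 genes, 3.78% to 4.55% of tested rows within 1.5-fold of its level were called. The smallest changes called there were 0.47 to 0.49 on the log2 scale of the plain ratio, and no smaller change was called near any of them.

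Ciita, the coactivator gene, was close to the bottom of the scale. It was listed at 0.0681 FPKM with vehicle and 0.172 FPKM with 4OHT, and the authors' table gave it no test. At this level the 2 values cannot show a change, and they do not show that the transcript was absent.

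**Figure D3:**
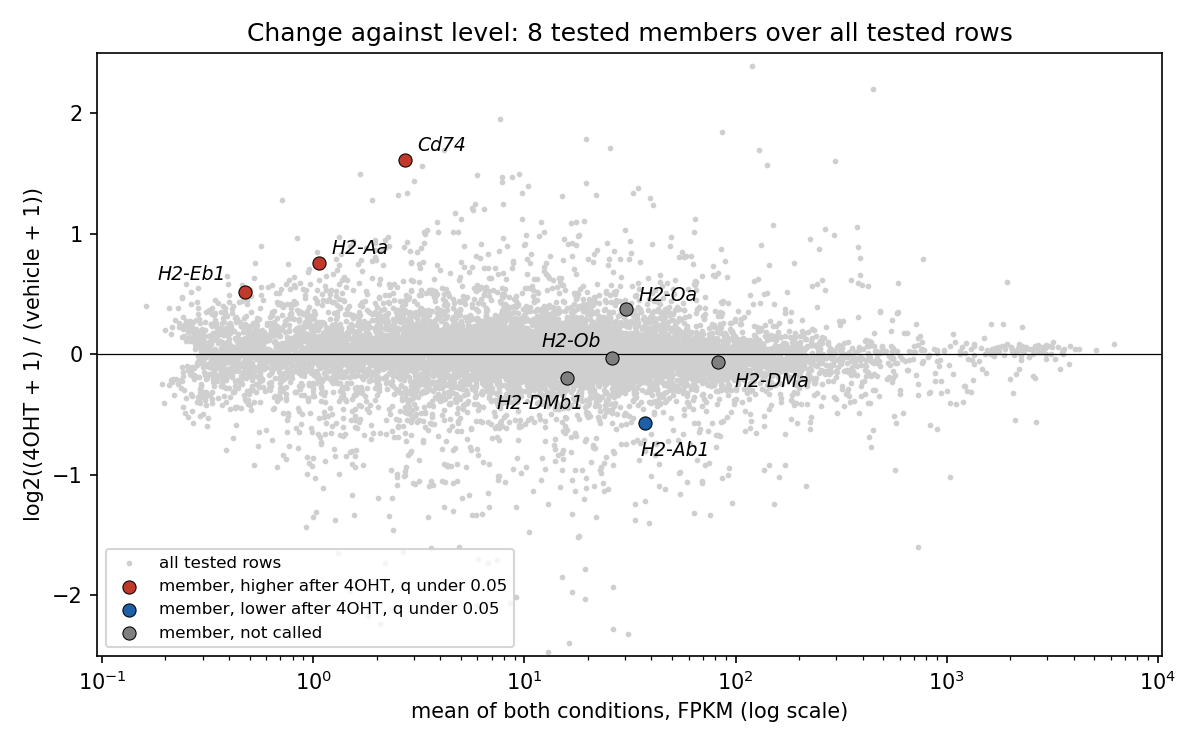
Log2 ratio with a pseudocount of 1 FPKM (vertical axis) against the mean FPKM of both conditions (log axis) for all tested rows in grey and the 8 tested members in colour; 32 tested rows lie beyond the axis limit of 2.5. Cd74 lies highest of the members at 1.62, H2-Aa and H2-Eb1 at 0.76 and 0.52, H2-Ab1 at -0.57, and the other 4 members between -0.19 and 0.37.

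In order of level the members formed 2 sets in either condition. In vehicle cells the order from the top was H2-DMa, H2-Ab1, H2-Ob, H2-Oa, H2-DMb1, Cd74, H2-Aa, H2-Eb1 and Ciita. After 4OHT H2-DMa was again the highest, and H2-Oa, H2-Ab1 and H2-Ob followed. The upper 5 had more than 10 FPKM in both conditions, and the lower 4 had less than 5 FPKM in both. With 1 value per condition, which neighbours in this order differ beyond their spread cannot be said.

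Of the members, 7 lie together on chromosome 17, in a stretch that also holds genes of class I peptide supply. On mm9 the stretch from the H2-Oa row to the H2-Eb1 row spans chr17:34220788-34453619, 233 kb, and holds 14 rows. Its first base is the start of the locus that H2-Oa shares with BC051537, and need not be that of H2-Oa itself. The changes called in it were H2-Ab1 (chr17:34400172-34406363), H2-Aa (chr17:34419696-34424716) and H2-Eb1 (chr17:34442812-34453619), which are next to each other within 53.4 kb. H2-Ab1, which fell, ends 13.3 kb from H2-Aa, which rose. The 7 rows that are not members were all tested, and none was called, nor had any an unadjusted p under 0.05 in the authors' deposited table. Their log2 ratios ran from -0.28 for Tap2, a subunit of the class I peptide transporter, to 0.19 for H2-DMb2. Psmb8 and Psmb9, subunits of the immunoproteasome, had 398 and 227 FPKM in vehicle cells and 354 and 217 FPKM after 4OHT. Both were far more abundant than any class II member. Ciita lies apart, at chr16:10480165-10527657.

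**Figure D4:**
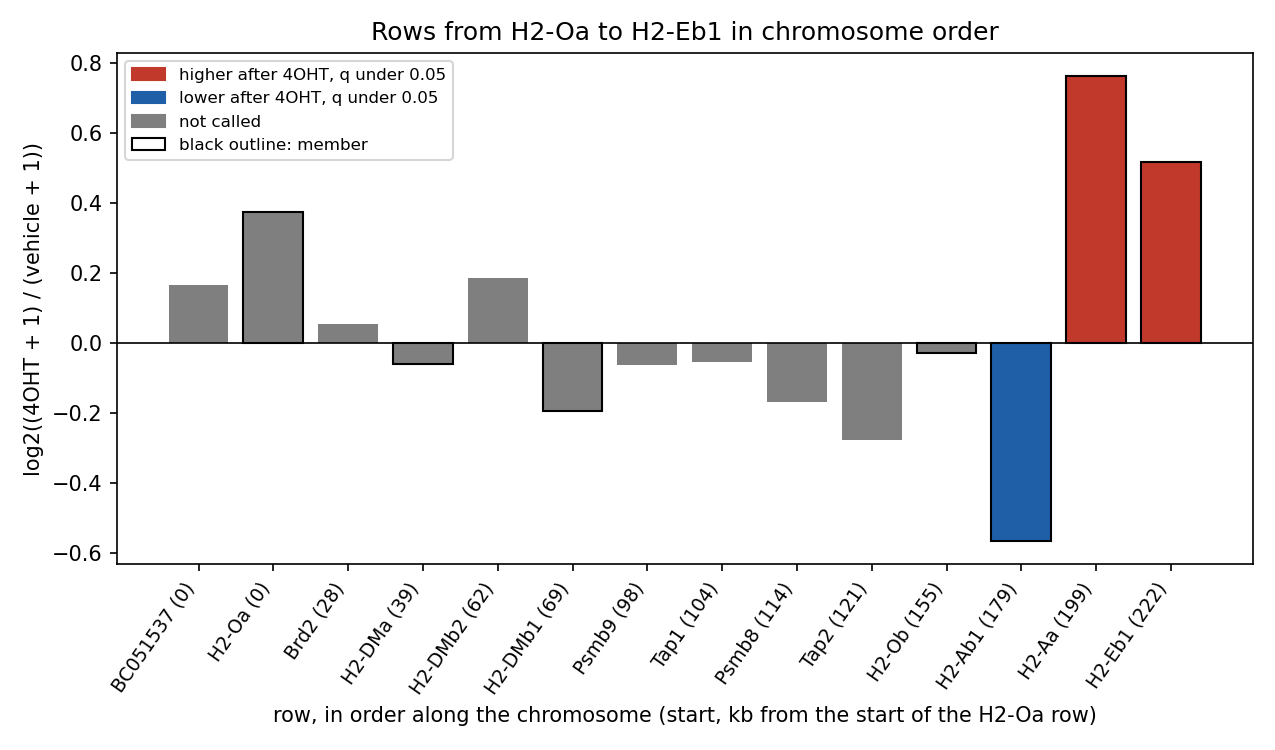
Log2 ratio with a pseudocount of 1 FPKM for the 14 rows from H2-Oa to H2-Eb1 in chromosome order. The distance of each start from that of the H2-Oa row, a locus shared with BC051537, is given in kb. Black outlines mark members, and colours mark rows called here by the authors' deposited q. The 3 called rows are the last in order, H2-Ab1 at -0.57, H2-Aa at 0.76 and H2-Eb1 at 0.52.

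The remaining genes of the pathway were described by 7 lists, with 49 genes beside the members. Of these 42 were tested, and of those 1 rose, 4 fell and the other 37 did not pass. The share called was 11.9%, beside 5.91% of all tested rows, and the median log2 ratio of the tested genes was -0.03. These lists were chosen with earlier results of these data known, so the share is a description. Among the factors of class II transcription none of 7 passed the test. Rfx5, the large subunit of the X box factor RFX, had 6.89 and 8.81 FPKM, and its partners Rfxank and Rfxap had 10.7 and 10.5 FPKM and 7.78 and 7.44 FPKM. Nfya, a subunit of the Y box factor NF-Y, had 30.8 FPKM with vehicle and 34.8 FPKM with 4OHT.

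Of 12 genes of signalling to Ciita, 10 were tested, and 2 fell and none rose. Ifngr1, the ligand-binding chain of the interferon-gamma receptor, fell from 104 to 70.6 FPKM (q of 0.0139 by the authors' deposited table). Irf8, a transcription factor of monocytes and dendritic cells, fell from 21.7 to 14.7 FPKM, with q = 0.0182 there. Ifngr2, the other receptor chain, had 17.6 and 15.5 FPKM, and the kinases Jak1 and Jak2 had 41.9 and 49.0 FPKM and 13.5 and 11.2 FPKM. None of these 3 passed the test.

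Of 12 genes of class II processing in endosomes, Lamp1 fell and 11 did not pass the test. Lamp1, a protein of the lysosomal membrane, fell from 274 to 178 FPKM (q of 0.00310 by the authors' deposited table). Ctss, the protease that trims the invariant chain in many antigen-presenting cells, had 10.26 and 10.27 FPKM. The cathepsins Ctsl, Ctsb and Ctsd had 31.7, 62.7 and 609 FPKM in vehicle cells and 26.2, 50.6 and 688 FPKM after 4OHT. Of 3 matched turnover genes 1 was tested, the interleukin-10 receptor chain Il10ra, with 10.8 and 9.39 FPKM, and it did not pass.

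Of 7 costimulation genes 5 were tested, and 1 rose. This was Pdcd1lg2, which encodes PD-L2, an inhibitory ligand of T cells, with 0.951 FPKM in vehicle cells, 1.78 FPKM after 4OHT and a q of 0.0272 by the authors' deposited table. Icosl, Cd274 and Icam1 had 3.84 to 5.45 FPKM and did not pass. The costimulatory ligand gene Cd80 had 0.727 and 0.696 FPKM and did not pass, and Cd86 and Cd40, which were not tested, had at most 0.156 FPKM in either condition. Of the ligands and receptor partners of CD74, Cxcr2 fell from 3.68 to 2.22 FPKM, with q = 0.0375 there. Mif, the ligand of CD74, had 1441 and 1159 FPKM, and Cd44, Cxcr4 and Ddt did not pass either.

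**Figure D5:**
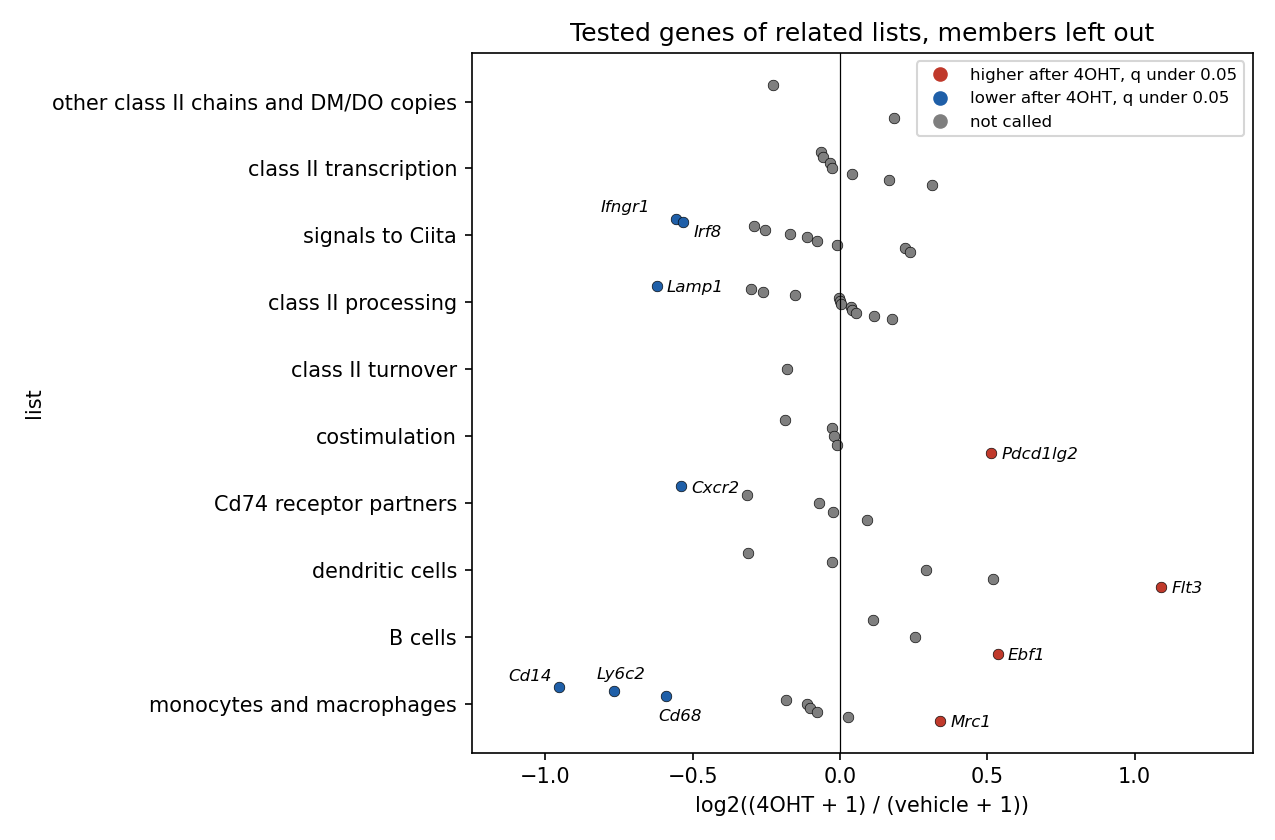
Log2 ratio with a pseudocount of 1 FPKM of each tested gene in 7 pathway lists and 3 marker lists, with the members left out and called genes named. Most points lie near 0, and the called pathway genes are Ifngr1, Irf8, Lamp1 and Cxcr2 on the lower side and Pdcd1lg2 on the higher.

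Markers of cells that carry class II were measured beside the members. Of all tested rows 2.80% rose and 3.11% fell, and the counts for marker lists are to be read beside these shares. The lists were chosen with earlier results of these data known, so the comparison is a description and not a test. Of 12 dendritic cell genes 5 were tested and 1 rose, Flt3, a growth factor receptor that early progenitors carry as well (10.3 to 23.1 FPKM). Itgax, which encodes CD11c, had 0.292 and 0.582 FPKM (q of 0.0721 by the authors' deposited table), and Clec10a, a lectin, 9.23 and 13.7 FPKM, with q = 0.0605 there. Batf3, a factor of dendritic cell development, had 0.453 and 0.171 FPKM, with q = 0.602 there, and Cst3, a protease inhibitor, 470.3 and 462 FPKM. None of these 4 passed the test. Of the 7 genes that were not tested, Ccr7 had 0.0801 and 0.274 FPKM, Zbtb46, Clec9a, Xcr1, Siglech and Ccr9 had at most 0.0679 FPKM in either condition, and Cd209a was listed at 0 in both. The summed level of the list, most of it from Cst3, was 491 FPKM with vehicle and 500 FPKM with 4OHT.

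Of 12 B cell genes 3 were tested and 1 rose, Ebf1, a factor of early B cells (0.754 to 1.54 FPKM, q of 0.0301 by the authors' deposited table). Ms4a1, Pax5 and Blk were listed at 0 in both conditions, and the list summed to 1.77 and 2.90 FPKM. Of 12 monocyte and macrophage genes 9 were tested. Among them Cd14, Cd68 and Ly6c2 fell and Mrc1, a macrophage receptor, rose. The other 5 tested genes did not pass, among them Adgre1 with 147 and 129 FPKM and Csf1r with 2.84 and 2.55 FPKM. Mrc1 stayed below 1 FPKM in both conditions, at 0.185 and 0.499 FPKM. The list summed to 754 FPKM with vehicle and 488 FPKM with 4OHT, most of it from Ly6c2, at 551 and 323 FPKM. In the list of stem and early progenitor cells all 8 genes were tested, and 7 rose and none fell, with sums of 605 and 916 FPKM. The gene that did not pass was Meis1, with 162 and 155 FPKM. All cells also carried Meis1 on a retrovirus, and the part of vector RNA in its value was not tested. The shares over all tested rows were 2.80% higher and 3.11% lower. In the neutrophil list 6 of 8 genes were tested, and 4 fell and none rose. In the mast cell and basophil list 7 of 8 were tested, and 3 rose and none fell. Of those 3, Kit and Gata2 are also on the stem and early progenitor list, and Cpa3 is not. No T or NK cell gene reached the tests, and that list summed to 0.167 and 0.124 FPKM. The part of any of these cells in the changes of the class II genes was not tested.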

How the data were processed

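RNA was sequenced in 1 sample per condition, each joining 2 replicates, per the labels. The authors deposited 1 gene table with an FPKM value per gene and condition and, per the file headers, a p-value and a q-value. Cuffdiff 2.0.2, Bowtie2 2.0.0.7, CASAVA 1.8.2 and the build mm9 are named in the submitters' processing notes, without saying what each did. The annotation and the scaling between conditions are not stated in the sources used here. The deposited q equals a Benjamini-Hochberg adjustment over the 11953 tested rows to within 5.28e-07. The deposited p-values are all multiples of 5e-05, and the test behind them is not stated. Whether libraries kept strand is not stated either, so overlapping genes cannot be told apart.

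With 1 value per condition, only the deposited q was used (status OK, q under 0.05). Log2 ratios used a pseudocount of 1 FPKM unless called plain. Deposited starts were raised by 1 base. Promoters came from RefSeq on GRCm38.p6, and no coordinate was converted. Pathway and marker lists, alternatives and naming rules were chosen with earlier results of these data known. Each list's called genes are named, with up to 4 others of at least 1 FPKM in list order, and some listed genes are not reported here by name. H2-Eb2, H2-Ea-ps, BC051537, the class I rows, Cd80, Cd86, Cd40 and marker genes were named outside that rule, after their values were seen. Symbols were matched directly or by an older RefSeq symbol (Spi1, Adgre1), and March1 and March8 were unmatched. The adjustment was tested on simulated data. Python 3.11.15, pandas 2.3.3 and numpy 2.4.6 were used.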

Additional observations from a re-analysis of the deposited data

How the results depend on the processing

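Calls near the threshold depended on it. At a deposited q under 0.01, 1 member (Cd74) was higher and 0 were lower, where an unadjusted p under 0.05 gave 4 higher, with H2-Oa added, and 1 lower. With at least a 2-fold change required as well, 3 were higher and 0 lower, since H2-Ab1 changed less. Over rows of at least 1 FPKM, with p adjusted again, 2 were higher and 1 lower, because H2-Eb1 was below that level. The members' median log2 ratio of 0.13 was 0.38 with a pseudocount of 0.1 FPKM, 0.14 after division by total FPKM, 0.13 after centring on expressed rows and -0.027 over the 7 members of at least 1 FPKM, so its sign rests on the low genes. None of the 27 recomputed ratios of single members changed sign. The summed FPKM of all members, 200.2 in vehicle cells and 192.6 after 4OHT, was 155.7 and 162.8 without H2-Ab1, which turned its direction, and 115.9 and 111.8 without H2-DMa, an alternative chosen after seeing the data. No paired analysis was possible because each condition has 1 deposited value that joins its replicates. Leaving out a replicate was not possible for the same reason, and depth is unknown.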

Other observations

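Further copies of class II chains were low. H2-Eb2, a second I-E-like beta chain gene, had 0.758 FPKM with vehicle and 0.501 FPKM with 4OHT (q of 0.495 by the authors' deposited table). H2-Ea-ps, the alpha chain locus of I-E, was listed at 0 in both conditions.

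The authors' deposited table carries a further mark of differential expression that 629 of the 707 called rows hold. The smallest fold among marked rows was 1.501 and the largest among called rows without the mark was 1.499. H2-Ab1, at 1.496-fold, is called by its q and lacks the mark, whereas Cd74, H2-Aa and H2-Eb1 carry it. Ifngr1 and Irf8, each with a 4OHT to vehicle ratio of 0.677, changed less than H2-Ab1, with 0.668. Their falls thus also lie under the smallest marked fold.

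For several members the deposited locus and the RefSeq gene differ in length. The H2-Oa locus, which is given identically for BC051537, spans 11467 bases on mm9 where the RefSeq gene on GRCm38 spans 2856. The H2-DMa locus spans 16270 bases where the RefSeq gene spans 19409. For Cd74, H2-Ab1, H2-Eb1, H2-DMb1 and H2-Ob the lengths are equal.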
